A study of Mus musculus with 6 samples.

Results

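The amylase genes of the mouse were followed through 6 single-cell libraries of pancreatic cells. Of the 7 genes listed by symbol, Amy1, Amy2a1, Amy2a2, Amy2a3, Amy2a4 and Amy2a5 matched 6 of the 31053 feature rows, and Amy2b was not analysed here. Cells came from mice of the C57Bl/6J background that carry R26[CA]30EYFP, in which a repeat tract keeps a yellow fluorescent protein (EYFP) out of frame until a chance replication error, so that EYFP positive cells carry a label that their descendants inherit. Each of 3 runs gave 1 EYFP positive and 1 EYFP negative library: runs 1 and 2 without treatment (homeostasis), run 3 at 9 days after intraperitoneal cerulein (50 ug/kg, 7 hourly injections a day, 2 days in a row), a secretagogue that in excess causes acute pancreatitis. There were thus 2 homeostasis libraries and 1 pancreatitis library of each EYFP fraction, and run 3 and pancreatitis cannot be told apart. Neither pooling of animals nor the animal behind each library is stated in the labels, and the p-values therefore cover only the variation among these 6 libraries, which may be technical.

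Amylase is an endo-acting enzyme that cuts the internal alpha bonds of starch and glycogen into short sugars. Acinar cells of the pancreas store it in zymogen granules with proteases, lipases and nucleases, and release it when cholecystokinin or acetylcholine raises their calcium. In the mouse the Amy2 genes are the pancreatic genes and Amy1 is the gene known for salivary gland and liver. Acinar transcription of such enzyme genes rests on the complex of PTF1A with RBPJL, and amylase in the exocrine pancreas is known to depend on insulin.

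The 7 genes lie in 1 cluster on the minus strand of chromosome 3 (GENCODE vM21, GRCm38), spanning 459 kb from 113147656 to 113606699. In order of position they were Amy2b (113147656 to 113156727), Amy2a5 (113247178 to 113258837), Amy2a4 (113279843 to 113291449), Amy2a3 (113312455 to 113324052), Amy2a2 (113345055 to 113356658), Amy2a1 (113529403 to 113532428) and Amy1 (113555710 to 113606699). GENCODE lists Amy2b as an unprocessed pseudogene and the others as protein coding. The transcripts of Amy2a2, Amy2a3 and Amy2a4, of 3717 bases each, differed at 0 positions. The Amy2a5 transcript of 3715 bases shared their whole coding part of 1527 bases and differed from them only after the stop codon, by 53 substitutions and 8 gap bases in an alignment of that end. Amy1 has a coding part of 1536 bases that was 89.7% identical to the Amy2a coding part. The ungapped coding stretch in which the 2 kinds differed most is shown to make clear what a read can separate, from base 397 to base 456 of the coding part of each, with the 13 differing bases in capitals; Amy2a2, Amy2a3 and Amy2a4 have the Amy2a5 sequence.
Amy2a5: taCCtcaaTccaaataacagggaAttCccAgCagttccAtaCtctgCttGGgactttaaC
Amy1: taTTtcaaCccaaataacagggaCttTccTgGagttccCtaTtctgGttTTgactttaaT

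Which copy a read could name followed from these sequences. Of the 3658 possible pieces of 60 bases in Amy2a2, Amy2a3 or Amy2a4, 0 were absent from the transcripts of the other amylase genes, and with pieces of 91 bases the count was also 0. In the last 500 bases of Amy2a5, 433 of 441 pieces of 60 bases were its own, and in the last 500 bases of Amy1 441 of 441. Amy2a1 is modelled by a short transcript of 890 bases, of whose 831 pieces 43 were its own. The split of UMIs (unique molecular identifiers, 1 per captured transcript) among Amy2a2, Amy2a3 and Amy2a4 is therefore uncertain, and the way it was made was not given in the sources used here. Whether reads that match several copies were counted or left out was not given either. If they were left out, the Amy2a sum and the amylase totals and shares below are too low. The values of these copies are given below, with the sum over the Amy2a copies beside them. A further uncertainty touches Amy1: exon 1 of the transcript Amy1-205 (113605572 to 113606699) lies in full, by 1128 bases, within Rnpc3 (113605067 to 113630149), a spliceosome gene on the same strand.

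RefSeq (GRCm38.p6) gave a window before the start of all 7 genes, 2 of them for Amy1, and 250 bases before the start were searched on both strands for CAGCTG and CACCTG (E-boxes, the kind of site that the PTF1A complex binds), TGGGAA (the kind of site that its RBPJL partner binds) and TATAAA. The windows of Amy2a2, Amy2a3 and Amy2a4 were identical and are shown once, with the 112 bases that also begin the window of Amy2a5 in capitals. The RefSeq start of Amy2a5 lies 17 bases before the coding part and those of the other 3 copies 155 bases before it, so the windows are shifted against each other. The downstream of the Amy1 windows is shown for contrast, with its TATAAA in capitals; it shared no run of more than 7 bases with that of Amy2a5.
Amy2a2 (chr3:113356659-113356908, minus strand): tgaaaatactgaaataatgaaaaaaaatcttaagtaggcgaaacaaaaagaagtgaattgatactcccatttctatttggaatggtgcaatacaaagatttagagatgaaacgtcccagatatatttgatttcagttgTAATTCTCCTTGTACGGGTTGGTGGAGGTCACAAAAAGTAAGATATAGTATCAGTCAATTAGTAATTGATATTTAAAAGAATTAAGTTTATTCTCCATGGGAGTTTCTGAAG
Amy1 (chr3:113574763-113575012, minus strand): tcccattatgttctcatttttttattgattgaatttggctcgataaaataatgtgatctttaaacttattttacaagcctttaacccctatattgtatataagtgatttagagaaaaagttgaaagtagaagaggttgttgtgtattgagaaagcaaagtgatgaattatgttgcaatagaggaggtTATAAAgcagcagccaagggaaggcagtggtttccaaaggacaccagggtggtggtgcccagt

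The window of Amy2a5 held CAGCTG 132 bases and TATAAA 30 bases before the start. That of Amy2b held CACCTG 132 bases and TATAAA 26 bases before it. The Amy1 window that is shown held TATAAA 63 bases before its start, and the upstream one held TGGGAA on the reverse strand, 131 bases before its start. None of the 4 motifs was in the windows of Amy2a1, Amy2a2, Amy2a3 or Amy2a4, whose RefSeq starts lie 155 bases before the coding part. Both Amy2a5 motifs lie within the 155 bases before its coding part. In the GENCODE transcripts those bases differed at 0 positions among Amy2a2, Amy2a3, Amy2a4 and Amy2a5. Amy2a2, Amy2a3 and Amy2a4 therefore hold CAGCTG and TATAAA too, after their RefSeq starts and outside the windows searched. Among 32851 RefSeq windows of the same length, 13.0% held CAGCTG, 17.2% CACCTG, 21.6% TGGGAA and 12.4% TATAAA.

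Of 8582 barcodes, 4879 were kept, and 568 of these were called acinar-like from markers that include no amylase gene. They held 4263576 UMIs, with a median of 5856.5 per cell, and all 20 acinar markers were detected in every library. The EYFP negative libraries of runs 1, 2 and 3 gave 8, 24 and 363 acinar-like cells, with 49994, 109958 and 2936711 UMIs, and the EYFP positive ones gave 38, 36 and 99, with 278321, 75575 and 813017 UMIs. Within these clusters 13 cells held more UMIs of another cell type's marker list than of the acinar list and were set aside, 5 for the endocrine and 8 for the erythroid list. A small acinar-like cluster of 41 cells was rich in the nuclear transcript Malat1, had 11.5% of its UMIs in digestive enzyme genes against 69.3% in the main cluster of 527, and held 31 of the 36 acinar-like cells of EYFP positive run 2. Markers of other cell types were counted in the cells kept as acinar-like. The summed ductal markers stood at 531 to 846 CPM (UMIs of a gene over all UMIs of the cells, on the scale where 1% is 10000) in 5 libraries and at 3506 CPM in EYFP positive run 2, with 7 to 13 of 14 genes detected per library. Erythroid markers stood at 40.0 to 3407 CPM, highest in EYFP negative run 3, with 1 to 7 of 8 genes detected. B or plasma cell markers stood at 860, 928, 28.7 and 1217 CPM in EYFP negative runs 1 and 2 and EYFP positive runs 1 and 2, against 26.2 and 65.2 CPM in EYFP negative and positive run 3, with 2 to 12 of 14 genes detected. EYFP positive run 2 was also the highest in endothelial markers, at 913 CPM against 21.8 to 473 CPM, in macrophage or monocyte markers, at 622 CPM against 18.4 to 118 CPM, and in T or NK markers, at 304 CPM against 3.59 to 63.7 CPM. Neutrophil markers were at 0 in all 6. The part of these transcripts in the amylase comparisons was not tested.

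The 2 libraries of a run shared cell barcodes: 23 in run 1, 71 in run 2 and 47 in run 3, against at most 2 between runs. In EYFP positive run 2, 68 of 187 kept cells had a barcode found in another library. Of the acinar-like cells, 7 did, 0 of them in run 3, and their part in the results was measured by leaving them out. Sex-linked transcripts also differed by run: 351 kept cells of EYFP negative run 1 had Xist and no Y-linked UMI and 0 had the reverse, while in EYFP negative run 3 these were 5 and 643. Run 2 held both kinds of kept cells, 815 and 271 in its EYFP negative and 57 and 48 in its EYFP positive library. The 2 homeostasis runs therefore differed in these transcripts too. EYFP positive runs 1 and 3 had 669 and 0, and 0 and 86. The part of sex-linked differences in the amylase comparisons was not tested, and it cannot be fully told apart from run 3.

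Most amylase UMIs of kept cells were in acinar-like cells: 9230 of 9523, or 96.9%, over all libraries. By library the share was lowest in EYFP negative run 2, at 66.3% (136 of 205), then 89.0% in EYFP positive run 2, and 94.2% to 99.6% in the other 4. Amylase was a small part of the UMIs counted in those cells, where reads shared by copies may be missing. Amylase UMIs were 0.806%, 0.124% and 0.0967% of all UMIs in acinar-like cells of EYFP negative runs 1, 2 and 3, with 95% exact binomial intervals of 0.730% to 0.888%, 0.104% to 0.146% and 0.0932% to 0.1003%. In EYFP positive runs 1, 2 and 3 they were 0.782%, 0.150% and 0.438%, with intervals of 0.750% to 0.816%, 0.123% to 0.180% and 0.424% to 0.453%. Intervals cover counting error only. Both libraries of run 1 were high, both of run 2 low, and the 2 of run 3 lay apart, so the value of EYFP positive run 3 fell within the range of the homeostasis libraries and that of EYFP negative run 3 just below it. The mean over libraries was 0.399% ± 0.330 (SD, n = 6).

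**Figure D1:**
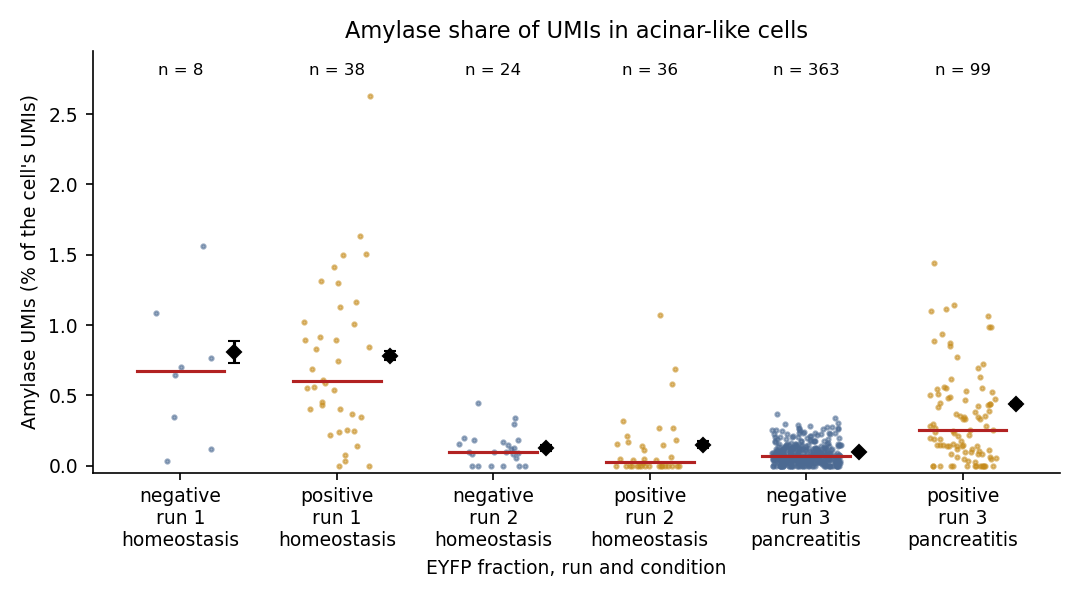
Amylase UMIs as a percent of all UMIs in each acinar-like cell (points), with the median over cells (red line) and the library's pooled share with its 95% exact binomial interval (black diamond), by EYFP fraction and run. Both libraries of run 1 lie high, with medians of 0.677% and 0.601%, and EYFP negative run 3, with 363 cells, lies low, with a median of 0.0713%.

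Cells within a library also differed widely. In EYFP positive run 1 single cells ranged from 0% to 2.63% amylase UMIs, with a median of 0.601%, and in EYFP positive run 3 from 0% to 1.44%, with a median of 0.253%. EYFP negative run 3 had a narrow range, from 0% to 0.371% with a median of 0.0713%, and 43 of its 363 cells had 0 amylase UMIs. A few cells carried much of the signal in the small libraries: 1 cell held 50.1% of the amylase UMIs of EYFP negative run 1, and the leading cells of EYFP positive run 1 and EYFP negative run 2 held 26.6% and 30.9%. The leading cells of both run 1 libraries had barcodes found in another library. Without the cells of shared barcodes the share in EYFP negative run 1 was 0.641% and in EYFP positive run 1 it was 0.755%. The leading cell then held 34.8% of the amylase UMIs in EYFP negative run 1 and 11.4% in EYFP positive run 1. In EYFP positive run 2 the share depended on the kind of cell: it was 0.595% in its 5 cells of the main acinar-like cluster and 0.0729% in its 31 Malat1-rich cells.

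Set against the other digestive enzymes instead of all UMIs, amylase was again highest in both libraries of run 1, but EYFP positive run 2 was no longer low. Amylase made up 1.18%, 0.207% and 0.141% of the UMIs of amylase and 26 other digestive enzyme genes in the EYFP negative libraries of runs 1, 2 and 3, and 1.10%, 0.720% and 0.611% in the EYFP positive ones. On this scale EYFP positive run 2 stood above EYFP positive run 3 and EYFP negative run 2. As references, Cpa1, which encodes carboxypeptidase A1, stood at 38125, 32685 and 19104 CPM in EYFP negative runs 1, 2 and 3 and at 36627, 11790 and 20749 CPM in EYFP positive runs 1, 2 and 3. Ctrb1, which encodes chymotrypsinogen, stood at 94231, 109296 and 164413 CPM in the former and at 101408, 27324 and 163561 CPM in the latter. Both references were lowest in EYFP positive run 2; Cpa1 was highest in run 1, as amylase was, and Ctrb1 in run 3.

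Amy2a5, whose last 500 bases set it apart, gave the largest share of the amylase UMIs in all 6 libraries, 48.3% to 59.7%. Over its whole transcript 1672 of 3656 pieces of 60 bases were its own. Where the reads of Amy2a5 fell is not in the counts. Its level was 3980, 646 and 467 CPM in EYFP negative runs 1, 2 and 3 and 4010, 847 and 2614 CPM in EYFP positive runs 1, 2 and 3. The libraries of run 1 were the highest and EYFP negative run 3 the lowest. Amy2a2 stood at 1460, 173 and 178 CPM in EYFP negative and at 1358, 159 and 690 CPM in EYFP positive runs 1, 2 and 3. Amy2a3 stood at 1300, 109 and 104 CPM and at 1250, 185 and 434 CPM in the same order, and Amy2a4 at 960, 227 and 144 CPM and at 891, 251 and 487 CPM. These 3 copies cannot be told apart by their reads, and all were high in run 1 of both fractions. The sum over the Amy2a copies was 7701, 1155 and 893 CPM in EYFP negative and 7509, 1442 and 4226 CPM in EYFP positive runs 1, 2 and 3. Amy2a1 had 1 UMI in all acinar-like cells, in EYFP positive run 3, and 2 in all barcodes.

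Amy1, the salivary and liver gene, was also counted in acinar-like cells of every library. It stood at 360, 81.8 and 73.9 CPM in EYFP negative runs 1, 2 and 3, from 18, 9 and 217 UMIs. In EYFP positive runs 1, 2 and 3 it stood at 313, 52.9 and 154 CPM, from 87, 4 and 125 UMIs. Like the Amy2a sum it was highest in both libraries of run 1 and next in EYFP positive run 3; it was lowest in EYFP positive run 2, where the interval of 14.4 to 136 CPM held the values of EYFP negative runs 2 and 3.

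**Figure D2:**
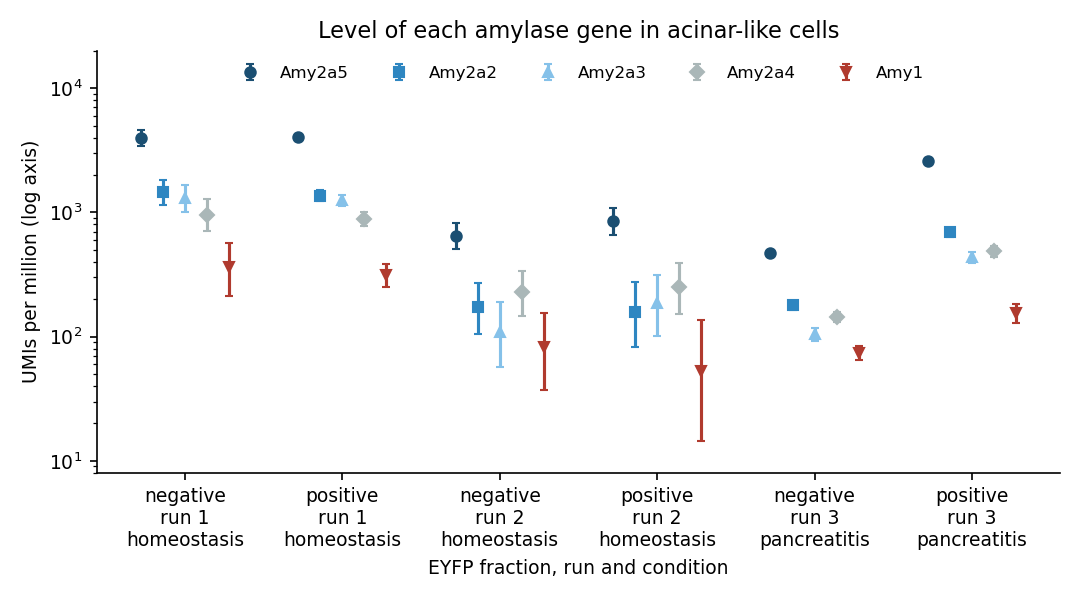
Level of 5 amylase genes in acinar-like cells, in CPM on a log axis, by EYFP fraction and run, with 95% exact binomial intervals. Amy2a5 is the highest and Amy1 the lowest of the 5 in all 6 libraries, and all 5 are high in both libraries of run 1.

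The makeup of the amylase UMIs moved much less than their level. Amy2a5 gave 49.4%, 52.2% and 48.3% of amylase UMIs in the EYFP negative libraries of runs 1, 2 and 3 and 51.3%, 56.6% and 59.7% in the EYFP positive ones, a mean of 52.9% ± 4.39 (SD, n = 6). In run 3 the fractions lay apart beyond counting error, with intervals of 46.5% to 50.2% in EYFP negative and 58.04% to 61.3% in EYFP positive cells; cells of 1 library are not replicates, and this difference was not tested. Amy1 gave 4.47%, 6.62% and 7.64% in EYFP negative and 3.996%, 3.54% and 3.51% in EYFP positive runs 1, 2 and 3, a mean of 4.96% ± 1.75 (SD, n = 6). In run 3 its intervals were 6.69% to 8.68% in EYFP negative and 2.93% to 4.17% in EYFP positive cells. These are shares of UMIs, not divided by transcript length, and they depend on how reads shared by copies were counted.

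**Figure D3:**
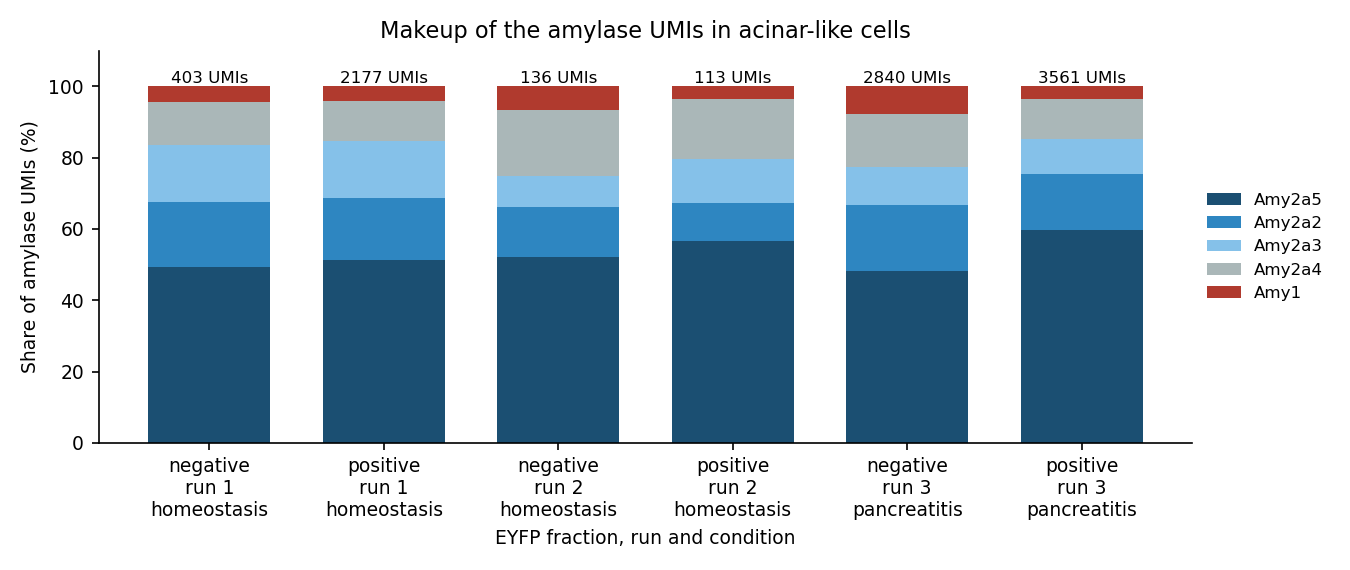
Share of the amylase UMIs of acinar-like cells given by each gene (stacked bars, percent), by EYFP fraction and run, with the number of amylase UMIs above each bar. Amy2a5 makes up 48.3% to 59.7% and Amy1 3.51% to 7.64%, while the split of the middle 3 copies is uncertain.

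To ask whether labelled cells differ in amylase, EYFP positive libraries were compared with EYFP negative ones over summed counts, with condition in the model. None of the 5 amylase genes that passed the low-count filter was called, and all 5 had higher fitted values in EYFP positive libraries. The background was the same: edgeR's quasi-likelihood test called 0 of 745 genes (0%) at a Benjamini-Hochberg adjusted p under 0.05, with 4 (0.537%) at an unadjusted p under 0.05, and DESeq2 called 0, with 7 at an unadjusted p under 0.05. The Amy2a sum had a log2 fold change of 0.87 ± 1.25 (SE, edgeR adjusted p = 0.9996). Amy2a5 had 0.95 ± 1.23 and Amy1 0.40 ± 1.002 (SE), and the median over the 5 genes was 0.73, against 0.052 over all 745, of which 410 were higher. The EYFP positive library was above the EYFP negative one in CPM of the Amy2a sum in runs 2 and 3 and below it in run 1. These CPM leave out the TMM normalization factors of the fit, 2.43 in EYFP positive run 2 and 0.654 to 1.06 elsewhere. Scaled by these factors and the library sizes of the fit, the order turned around in runs 1 and 2. The EYFP positive library then stood above the EYFP negative one in run 1 and below it in run 2. Without EYFP negative run 1 the log2 fold change of the Amy2a sum was 2.56 and without EYFP positive run 1 it was 0.084 (edgeR adjusted p = 0.999 and 0.988).

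The comparison of run 3, after cerulein, with runs 1 and 2 asked whether amylase differs in acinar-like cells 9 days after injection. None of the 5 amylase genes was called, and all 5 had lower fitted values in run 3, where the background was 10 of 745 genes called (1.34%) and 180 (24.2%) at an unadjusted p under 0.05. The Amy2a sum had a log2 fold change of -1.31 ± 1.38 (SE, edgeR adjusted p = 0.639), Amy2a5 -1.15 ± 1.35, Amy2a3 -1.87 ± 1.40 and Amy1 -1.07 ± 1.08. The median over the 5 was -1.23, against -0.077 over all 745 genes, of which 384 were lower. The direction was not stable: without EYFP negative run 3 the Amy2a sum stood at 0.16, and with no low-count filter at 0.12, both higher in run 3. Without EYFP negative run 1 it stood at -0.084. In CPM, the homeostasis libraries spanned 1155 to 7701 and the run 3 libraries stood at 893 and 4226, so the groups overlapped. With no low-count filter Amy2a3 was the only member of the 5 that stayed lower, and the number of genes called over all genes moved from 10 to 154 without EYFP negative run 1, 30 without EYFP negative run 2, 5 without EYFP negative run 3, 36 without EYFP positive run 1, 49 without EYFP positive run 2 and 0 without EYFP positive run 3. In each of these fits 0 amylase genes were called.

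Other digestive enzymes did not share 1 direction with amylase in this comparison. Of 26 other enzyme genes, 25 were tested, 14 were higher and 11 lower in run 3, with a median log2 fold change of 0.16, and 3 were called, all higher, against 0.94% of all genes called higher. They were Prss1, Gm2663 and 1810009J06Rik, which belong to the trypsinogen family. Prss1 had 0 and 1 UMI in the EYFP negative libraries of runs 1 and 2, 1 and 0 in the EYFP positive ones, and 419 and 198 in EYFP negative and positive run 3. Gm2663 had 0 UMIs in all 4 homeostasis libraries and 1212 and 463 in EYFP negative and positive run 3. With a floor of 3 counts over the homeostasis group this was at least 76.5-fold higher (edgeR adjusted p = 0.0150), and 1810009J06Rik was at least 65.7-fold higher (edgeR adjusted p = 0.0150). Prss1 had a log2 fold change of 5.62 ± 0.86 (SE, edgeR adjusted p = 0.0150). Trypsinogen genes are near-identical relatives of each other, so which of them gave these UMIs is uncertain. Gm2663 and 1810009J06Rik lost their call with DESeq2 (adjusted p = 0.182 and 0.191) and with DESeq2 size factors in edgeR (adjusted p = 0.0638 for both). Without EYFP positive run 3 all 3 lost it (edgeR adjusted p = 0.318 for Prss1 and 0.199 for the other 2).

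**Figure D4:**
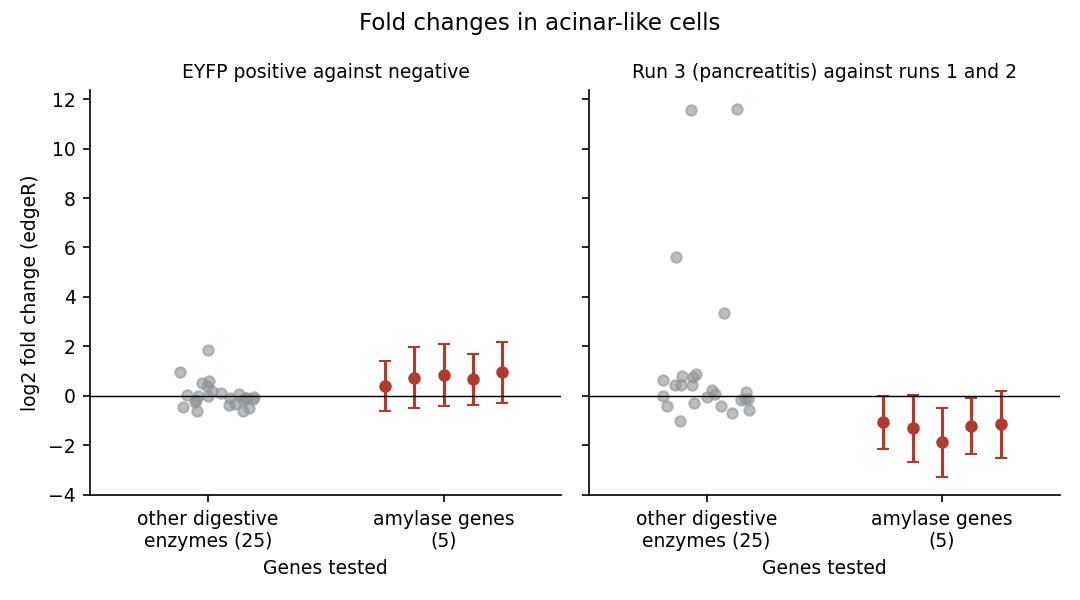
Fitted log2 fold changes in acinar-like cells from edgeR for 25 other digestive enzymes (grey) and 5 amylase genes (red, with standard errors), EYFP positive against negative on the left and run 3 against runs 1 and 2 on the right. The amylase genes lie above 0 on the left and below 0 on the right with 0 called in either, and 2 grey points near 11.6 are the trypsinogen genes at 0 in homeostasis, whose fitted values are no bound.

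The other genes of the pathway gave few tested members. Of 12 granule and exocytosis genes 8 were tested, and 0 were called in either comparison; in the EYFP comparison 1 was higher and 7 lower, and in run 3 3 were higher and 5 lower. Of 14 transcription factors of acinar genes 3 were tested: Ptf1a, Rbpjl and Xbp1. All 3 were lower in run 3 and higher in EYFP positive libraries, with 0 called. Rbpjl, the acinar partner of PTF1A, had 3, 43 and 171 UMIs in the EYFP negative libraries of runs 1, 2 and 3 and 25, 285 and 34 in the EYFP positive ones, and its 285 UMIs in EYFP positive run 2 stood at 3771 CPM against 41.8 to 391 CPM elsewhere. That library holds most of the Malat1-rich cells, and in the main acinar-like cluster alone the fold change of Rbpjl in run 3 turned from -3.11 to 0.38. Ctrc, which encodes chymotrypsin C, showed the same library, at 5041 CPM in EYFP positive run 2 against 80.0 to 437 CPM elsewhere, with a log2 fold change of 1.86 ± 1.07 in the EYFP comparison (SE, edgeR adjusted p = 0.999). Of 11 genes for secretagogue and insulin receptors and calcium release only Cckar, the cholecystokinin receptor, was tested, with 0 calls, and it was counted at 75.5 to 238 CPM. Of 10 genes for other starch and sugar digestion and hexose transport 7 had UMIs and 0 passed the filter.

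Whether the change in run 3 differed between the fractions was tested as an interaction. It was positive in all 5 amylase genes, with a median of 1.46. Over all 2427 genes the median was -0.66, and 717 were positive. Amy2a2, Amy2a3 and Amy2a4 cannot be told apart by their reads, so the 5 do not agree independently. The Amy2a sum fell from 7701 and 1155 CPM to 893 CPM in EYFP negative cells. In EYFP positive cells it stood at 4226 CPM, between 7509 and 1442 CPM. None of the 5 was called, against 0 of 2427 genes (0%) called by edgeR, 20 (0.824%) at an unadjusted p under 0.05, and 0 called by DESeq2, with 2 at an unadjusted p under 0.05. The Amy2a sum had an interaction of 1.71 ± 3.94 on the log2 scale (SE, edgeR adjusted p = 0.9997). The lone pancreatitis library of each fraction was assumed to vary like the others. This result rests on 1 library: without EYFP positive run 1 the interaction was 6.11. The EYFP positive homeostasis group is then run 2 alone, so no call is given for that fit. Without EYFP negative run 1 it was -0.42. Within a fraction, the Amy2a sum had a log2 fold change in run 3 of -1.46 ± 2.96 in EYFP negative and 0.24 ± 2.74 in EYFP positive libraries (SE), with 0 calls. These also turn on 1 library: the first was -2.40 without EYFP positive run 2, and the second was 4.61 without EYFP positive run 1.

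In the other cell classes amylase was found at levels far below those of acinar-like cells. Over all classes but acinar-like ones it stood at 9.30, 10.5 and 7.54 CPM in EYFP negative and at 18.3, 15.3 and 11.2 CPM in EYFP positive runs 1, 2 and 3, lower than in acinar-like cells of the same library by 97.8-fold to 867-fold. Pooled over libraries it was 14.9 CPM in endothelial-like, 22.3 CPM in ductal-like, 30.2 CPM in macrophage- or monocyte-like, 11.7 CPM in fibroblast-like, 5.14 CPM in T or NK-like, 4.27 CPM in B or plasma-like, 11.6 CPM in pericyte- or smooth muscle-like and 2.57 CPM in erythroid-like cells. Of the 30 amylase UMIs of macrophage- or monocyte-like cells, 16 were in 1 cell of EYFP negative run 2. With each cell thinned to 1000 UMIs, 0.402% to 4.10% of other cells had an amylase UMI per library, against 42.3% to 89.5% of acinar-like cells; unthinned the ranges were 2.49% to 10.4% and 52.8% to 100%. Cells of fewer UMIs were left out of the thinning, 10 acinar-like cells of EYFP positive run 2, 13 of EYFP positive run 3, 7 of EYFP negative run 3 and 4 of EYFP negative run 2 among them. Of other cells 8 to 342 per library were left out. Median depth was 5856.5 UMIs in acinar-like, 3219 in endothelial-like, 4790 in B or plasma-like and 9705 in ductal-like cells. Free RNA in droplets can give low counts to cells that do not express a gene, and its part in these values was not tested. In EYFP negative run 3 all 17 amylase UMIs of the 11 ductal-like cells were in 1 cell.

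In ductal-like cells a larger share of the few amylase UMIs was Amy1 than in acinar-like cells. Of their 83 amylase UMIs, 36 were Amy1, or 43.4% (95% exact binomial interval 32.5% to 54.7%), against 460 of 9230, or 4.98% (4.55% to 5.45%), in acinar-like cells and 19 of 187, or 10.2% (6.23% to 15.4%), in all other classes together. Within the latter the share was uneven. Amy1 gave 7 of 97 amylase UMIs in endothelial-like and 1 of 25 in B or plasma-like cells. In fibroblast-like cells it gave 5 of 10, but 3 of those 5 were in 1 cell of EYFP negative run 1. The Amy1 UMIs were spread over 31 of 345 ductal-like cells. In EYFP positive run 1, with the most such UMIs, Amy1 gave 23 of 39 amylase UMIs in ductal-like cells (59.0%, 42.1% to 74.4%), 3.996% in acinar-like cells and 3 of 58 (5.17%, 1.08% to 14.4%) in the other classes. In EYFP negative run 2 it gave 7 of 12 in ductal-like cells, 6.62% in acinar-like cells and 5 of 57 in the other classes. In the remaining libraries it gave 3 of 4, 0 of 17, 1 of 6 and 2 of 5 in ductal-like cells, in EYFP negative runs 1 and 3 and EYFP positive runs 2 and 3. In the other classes of the same 4 libraries it gave 6 of 21, 2 of 33, 0 of 8 and 3 of 10. The first was 28.6% (11.3% to 52.2%), and 3 of its 6 Amy1 UMIs were in the fibroblast-like cell named above. A share above that of acinar-like cells was thus also counted in the other classes, in EYFP negative runs 1 and 2 and EYFP positive runs 1 and 3. Only in EYFP negative run 1 and EYFP positive run 3 (6.67% to 65.2%) did the interval lie above the acinar-like share. These differences in share were not tested over libraries.

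Seen as levels, Amy1 stood at 9.68 CPM (6.78 to 13.4) in ductal-like cells and 0.963 CPM (0.580 to 1.503) in the other classes. The Amy2a copies stood at 12.6 CPM (9.29 to 16.8) and 8.51 CPM (7.27 to 9.90) in the same order. Of their 47 UMIs in ductal-like cells, 17 were in 1 cell of EYFP negative run 3. Rnpc3, whose gene overlaps an Amy1 exon, had 66.4 CPM in ductal-like cells, 29.1 CPM in the other classes and 3.05 CPM in acinar-like cells, where Amy1 was highest, at 108 CPM. Ductal-like cells of EYFP positive run 1 had 84.2 CPM of Rnpc3, with 23 Amy1 UMIs among 1627625 (14.1 CPM). Those of EYFP negative run 3 had 70.7 CPM of Rnpc3, with 0 Amy1 UMIs among 98984. The Amy1 interval there, 0 to 37.3 CPM, holds the 14.1 CPM of EYFP positive run 1. Where along the gene the Amy1 reads fell is not in the counts, so the part of that exon in the Amy1 UMIs was not tested. Without EYFP positive run 1 the share of Amy1 in ductal-like cells was 29.5% (16.8% to 45.2%). Without EYFP negative run 3 it was 54.5% (41.8% to 66.9%), and without the cells of shared barcodes it was 41.8%.

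**Figure D5:**
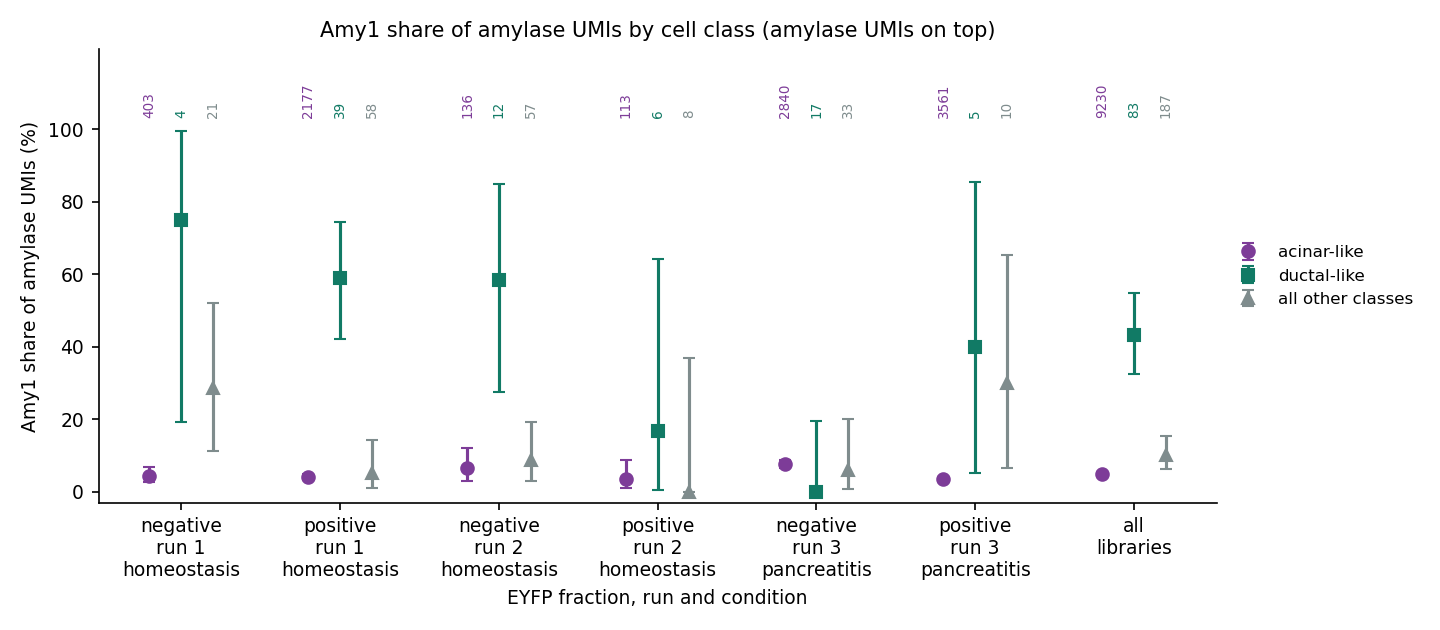
Amy1 as a percent of amylase UMIs in acinar-like cells (circles), ductal-like cells (squares) and all other classes (triangles), per library and over all libraries, with 95% exact binomial intervals and the number of amylase UMIs on top. Ductal-like cells stand at 43.4% over all libraries against 4.98% in acinar-like cells, with wide intervals in the libraries of few UMIs.

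Over all cell classes, the genes whose level was most like that of summed amylase were other acinar products. Over 41 sums of a cell class in a library with at least 10 cells, and among 11457 genes, Pearson's r of log2(CPM + 1) was highest for Pla2g1b (0.91), which encodes a pancreatic phospholipase, then Cpa1 (0.90), Clps, the colipase gene (0.90), Pdia2, a pancreatic disulfide isomerase gene (0.89), and Cel, the carboxyl ester lipase gene (0.89). Over the 6 acinar-like sums and 740 genes it was highest for Cel (0.89), then Cela2a, an elastase gene (0.77), AY036118 (0.77), Tmem59 (0.69) and Prdx4 (0.66). The sums share libraries and depth, so these values are a description. Cpa1, Clps and Cel were also among the markers that named the acinar-like cells, so their high r over cell classes was partly built in. Cel stood at 11541, 7594 and 5668 CPM in EYFP negative and at 11379, 5729 and 7497 CPM in EYFP positive runs 1, 2 and 3, high in both libraries of run 1 as amylase was, but over a narrower range.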

How the data were processed

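UMI counts of 6 libraries were analysed. The values deposited are raw counts of UMIs per gene and barcode, whole numbers per the file headers; the submitters' processing notes name Cell Ranger 2.1.0 and the human build GRCh38, while the identifiers are of the mouse, and which mouse build was used was not given in the sources used here. The members and gene lists were chosen with earlier results of these data known. Cells needed 200 or more genes and no more than 20% of UMIs from mitochondrial genes, and Scrublet doublets were removed (50 cells in all). Depth was 1044718 to 23658431 UMIs per library. Intervals are exact binomial at 95%, and a count of 0 allows 3 counts; both cover counting error only. Without amylase genes, 2000 variable genes, 30 components, 15 neighbours and Leiden resolution 1 (scanpy 1.11.5, igraph 0.11.9) gave 19 clusters, named from 16 marker lists by markers among the 10 leading genes (by fold and by score together) and at least 3 detected. That joint ranking and the rule that set cells aside were chosen after seeing the data.

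UMIs of acinar-like cells were summed per library and fitted over all genes with edgeR 4.0.16 in R 4.3.3 (TMM, filterByExpr, quasi-likelihood test, Benjamini-Hochberg adjustment, threshold 0.05), with standard errors from the fold change and its F value. The fit was tested on simulated data. Named genes were the members, Cpa1, Ctrb1, list genes of lowest p (up to 4 per list, fewer in the text) and the 5 most alike; AY036118, Tmem59 and Prdx4 came from the last rule. Alternatives were other size factors, DESeq2 1.42.0, no low-count filter, library sizes without enzyme genes, stricter cells (500 genes, 10%), all barcodes, doublets kept, amylase in the clustering, resolution 0.5, the main acinar-like cluster alone, leaving out each library, and a replicate block by run; shared barcodes left out and set-aside cells kept in were added after seeing the data. Run numbers, from the titles, paired the fractions: deviations from the fraction means correlated by 0.27, 0.73 and 0.73 in runs 1, 2 and 3 over 745 genes, where run 3 also shares its condition. Sequences came from GENCODE vM21 and RefSeq windows.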

Additional observations from a re-analysis of the deposited data

Results flagged for a closer look

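Outside the kept cells, the 3703 barcodes that the filters left out held 1731 amylase UMIs among 16830583, or 102.8 CPM, above the 0.178 CPM that a count of 0 allows. These barcodes had few genes, many mitochondrial UMIs or a doublet call. They entered no main comparison, only the alternatives with all barcodes or with doublets kept. Among 12 quantities on amylase level and makeup, 0 had a homeostasis library standing apart from the other 3 by Dixon's criterion, which chance alone would meet about 1 time in 20.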

How the results depend on the processing

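The log2 fold changes of the Amy2a sum kept their direction and their side of the threshold under 19 of 19 alternatives for EYFP, 16 of 18 for run 3 and 15 of 17 for the interaction. With no low-count filter the run 3 values turned higher, to 0.12 (Amy2a sum), 0.38 (Amy1), 0.11 (Amy2a2), 0.21 (Amy2a4) and 0.24 (Amy2a5); the median of all genes then moved from -0.077 to 0.22. It moved to 0.32 with library sizes without enzyme genes. The Amy2a sum in EYFP positive libraries, 0.24 for run 3, was -0.080 with DESeq2 size factors and with DESeq2 and -0.54 in the main cluster alone, where Rbpjl turned to -0.78 for EYFP and 0.38 for run 3. The cause was not tested.

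With each library left out, the Amy2a sum ranged from 0.084 to 2.56 for EYFP, -1.95 to 0.16 for run 3 and -0.42 to 6.11 for the interaction. For EYFP, Amy1 ranged from -0.32 to 1.57, Amy2a2 from -0.29 to 2.55, Amy2a3 from -0.049 to 2.89 and Rbpjl from -0.72 to 2.41. For run 3, Amy2a2 ranged from -1.91 to 0.016, Amy2a4 from -1.76 to 0.083 and Amy2a5 from -1.84 to 0.35. For the interaction, Amy1 ranged from -0.80 to 5.23, Amy2a2 from -0.94 to 6.53, Amy2a3 from -1.38 to 6.20, Amy2a4 from -0.16 to 5.19 and Amy2a5 from -0.091 to 6.18. The effect of run 3 on the Amy2a sum ranged from -2.71 to 0.65 in EYFP negative and -0.97 to 4.61 in EYFP positive libraries. Genes called ranged from 0 to 154 for run 3 and 0 to 86 for the interaction, and amylase genes called in the latter from 0 to 5.

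The 10 genes called for run 3 became 5 with DESeq2 size factors, 119 with DESeq2, 23 with no low-count filter, 50 with library sizes without enzyme genes, 146 with all barcodes, 16 in the main cluster alone and 63 with the set-aside cells kept, and the interaction then called 1. With run as a replicate block, the Amy2a sum was 0.73 for EYFP and 2.64 for the interaction, and the block changed no call. Other cells with an amylase UMI were 6.72% unthinned against 2.06% thinned. The interaction could not be fitted without either run 3 library. In the homeostasis libraries, 8 to 38 acinar-like cells each limit every comparison.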

Other observations

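The 13 cells set aside from the acinar-like clusters differed in amylase. The 5 with more endocrine than acinar marker UMIs came from 3 libraries, and held 0 amylase UMIs among 180668, which allows up to 16.6 CPM. The 8 with more erythroid than acinar marker UMIs held 23 among 103439, and 7 of them, all of EYFP negative run 3, had 21.3% to 38.3% of their UMIs in acinar markers beside haemoglobin transcripts.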
